A study of Mus musculus with 22 samples.

Results

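The RNA that mouse platelets carry was compared between animals lacking the splicing factor SRSF3 in the megakaryocyte lineage and their controls, over the 18740 genes, of 23930 listed, whose mean normalised read count in platelets was above 0. Platelets came from Pf4Cre-Srsf3fl/fl mice (4 libraries), from Cre-negative controls (3 libraries) and from wild type mice (3 libraries). In the knockout, Cre recombinase driven by the platelet factor 4 promoter acts on floxed Srsf3 alleles in megakaryocytes, from which the platelets are then shed, and only the knockout carries Cre, so the transgene and the loss of Srsf3 cannot be told apart. Age and sex are not given in the labels, the alleles of the Cre-negative controls are not spelled out, and nothing states whether each library is a different mouse, so p-values measure only the spread between these libraries, which may be technical. The strain entries of the platelet samples carry a number that increases by 1 from sample to sample and were not used. RNA from washed platelets (10 ng a library) was amplified as a transcriptome panel of amplicons and read on an Ion Proton sequencer.

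Platelets have no nucleus. They are shed by megakaryocytes, large polyploid cells of the bone marrow, and their RNA is what the megakaryocyte loaded into them, less what has decayed since. SRSF3 is an SR protein, a family that binds exons and acts in splicing, 3′ end choice and export of mRNA. Platelets work through surface receptors that meet the injured vessel wall, granules that release adhesive proteins and growth factors, and a cytoskeleton that shapes the cell around a coil of microtubules.

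The authors' deposited table gives 1 mean over libraries for each gene, and genes with very few reads allowed the libraries behind it to be counted. A gene with 1 read in 1 library has a mean that is the value of 1 read in that library, and such means took exactly 10 values, so all 10 platelet libraries had entered, wild type and Cre-negative together. For genes read in a single library the deposited log2 fold change rose with the number of reads in 4 libraries and fell in 6. These numbers match 4 knockout and 6 control libraries, so a positive fold change means higher in the knockout. The value of a read also gives each library's size factor, the number its counts were divided by. Size factors were 2.86, 2.21, 1.57 and 1.02 in the knockout libraries and between 0.620 and 0.855 in the 6 controls. The groups did not overlap, so the knockout libraries had been scaled down and the control libraries scaled up, and the part of this difference in the results was not tested. For all 7813 genes with a mean under 2, the reads in each library could be recovered exactly, although a library cannot be tied to a replicate number. Among these, 3182 genes had reads in knockout libraries only and 1306 in control libraries only. These are unscaled reads, and the size factors summed to 7.66 in the knockout libraries and 4.29 in the controls. The 2 counts are therefore not like for like, and the part of the size factors in them was not tested.

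The defining platelet transcripts were present at high counts in both groups. Srsf3, Gp5 and Gapdh have no row among those used here, so the deleted gene could not be checked. Tmsb4x, Actb, Ppbp and Pf4 had mean normalised counts of 516328, 460165, 255819 and 118914 per the authors' deposited table. Red cell transcripts were also abundant, with Alas2 at 66052, and are described with their spread further on. Neutrophil markers had little signal: Mpo had 1 read in all 10 libraries together, Elane had 1 and S100a9 had a mean of 163. Counts are of 1 amplicon per gene and are compared here between groups and not between genes.

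Knockout and control platelets differed in most of the genes that were well measured. The deposited table carries the column names of DESeq2, taken here as its source. The authors' DESeq2 test called 6707 of 12611 genes with an adjusted p (53.2%) at an adjusted p under 0.05, 3553 of them higher in the knockout (28.2%) and 3154 lower (25.0%). Among the 4067 genes with a mean normalised count of 100 or more, 81.3% were called, 37.3% higher and 44.0% lower. These shares are the background for every gene group below. The change was shown to exceed 2-fold for 1805 genes that were higher (14.3%) and 1551 that were lower (12.3%), by a normal test on the deposited fold change and its standard error (SE) with Benjamini-Hochberg adjustment. Fold changes compare an RNA with the remainder of its library, so less of an RNA per platelet and more of the others cannot be told apart. The median log2 fold change was 0.02 over all tested genes and -0.21 over those at 100 or more.

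**Figure D1:**
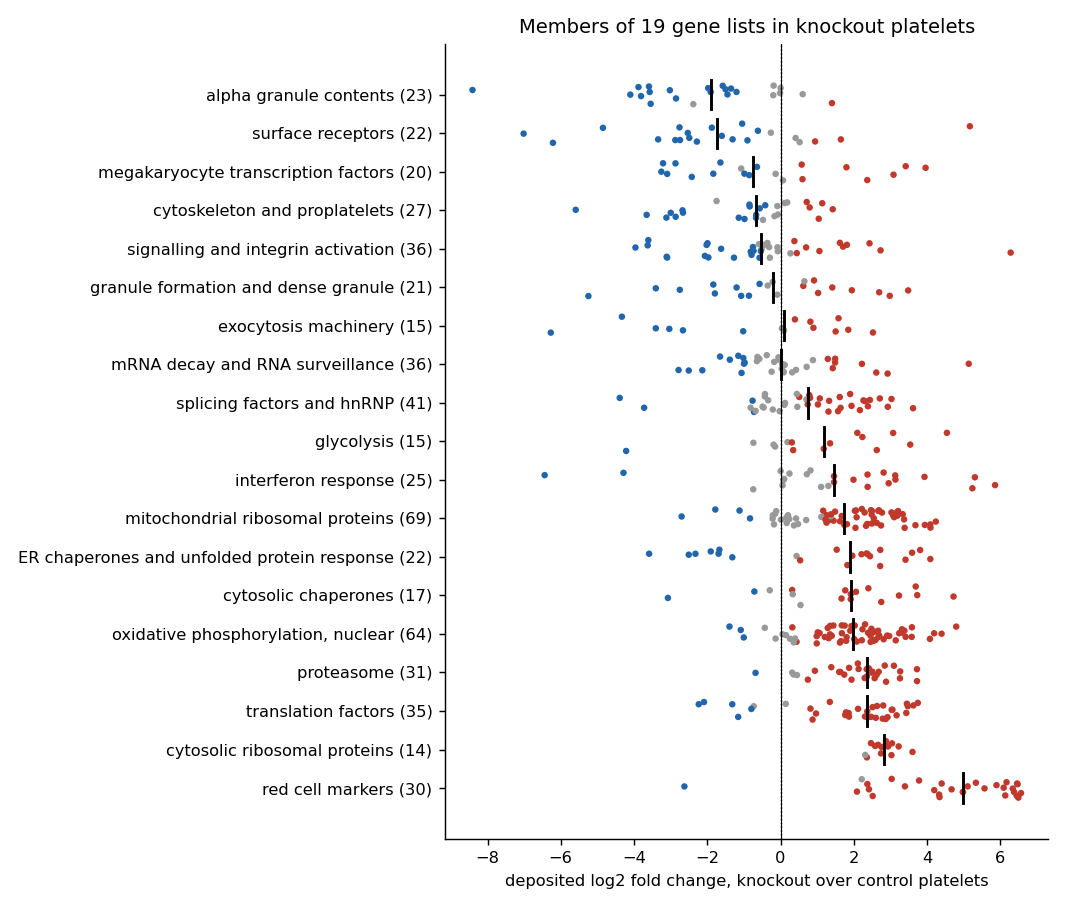
Deposited log2 fold change (horizontal axis) of each tested member of 19 gene lists, with the number tested in brackets. Red points were called higher, blue points called lower and grey points not called; the black bar is the list's median and the dotted line the median of all tested genes, 0.02. Alpha granule contents and surface receptors lie mostly to the left, and red cell, ribosomal, translation and proteasome genes to the right.

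The largest test scores among genes that fell in knockout platelets included those of a vesicle fusion gene, a channel, adhesion receptors and RNA regulators. Group levels were worked out from the deposited mean and fold change for genes with an SE of 0.5 or less. They are approximate, because the authors' fit draws fold changes towards 0. Stx11 (ENSMUSG00000039232, chromosome 10, 12938209 to 12964298 on the minus strand, GRCm38), which encodes a syntaxin needed for platelet granule release, went from a normalised count of 4306 in controls to 55.7 in the knockout, a deposited log2 fold change of -6.27 (SE 0.17; the authors' DESeq2 adjusted p was listed as 0). Panx1, a membrane channel that lets ATP out of cells, went from 3304 to 32.9, at -6.65 (SE 0.20) per the authors' deposited table. In both genes nearly all of the signal of the control platelets was missing from the knockout.

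Among receptors and adhesion molecules, the authors' deposited table had the integrin subunit gene Itgb5 at -6.50 (SE 0.20), Treml2 at -6.68 (SE 0.24) and Cd44, the hyaluronan receptor, at -3.64 (SE 0.11). Treml2 fell from 9279 to 90.4 normalised counts. Srxn1, which repairs oxidised peroxiredoxins, was at -5.98 (SE 0.17) and Papd5, a non-canonical poly(A) polymerase, at -5.85 (SE 0.18) per the authors' deposited table. Mbnl1, a splicing regulator, remained abundant while it fell from 75757 to 5735 normalised counts, at -3.72 (SE 0.13) per the authors' deposited table. The other genes among the 15 with the largest test scores on this side were Mdga1, Smim3, Inafm2, Ptpn12, Peg13, Gm12250 and Yaf2, with deposited log2 fold changes between -3.63 and -5.54.

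The largest test scores among genes that rose belonged to genes of varied roles. Yif1b (ENSMUSG00000030588, chromosome 7, 29238329 to 29247597 on the plus strand, GRCm38), which acts in transport between the endoplasmic reticulum and the Golgi, went from 83.5 to 5064 normalised counts, at 5.92 (SE 0.18; the authors' DESeq2 adjusted p = 6.6e-239). Calr, a calcium-binding chaperone of the endoplasmic reticulum, went from 803 to 13162, at 4.04 (SE 0.19) per the authors' deposited table. The actin regulators Cotl1, at 4.52 (SE 0.15), Coro1b, at 2.95 (SE 0.13), and Iqgap1, at 3.52 (SE 0.14), rose per the authors' deposited table. So did the tetraspanin gene Tspan32, at 4.44 (SE 0.14), and the mitochondrial genes Ndufa6, at 3.15 (SE 0.13), Txn2, at 3.57 (SE 0.16), and Slc25a3, at 2.83 (SE 0.13). Cct7, Zfp385a, Bola2, Ttll12, Lgals9 and Ubr4 completed the 15 largest test scores on this side, with deposited log2 fold changes between 3.18 and 5.82.

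The 3′ UTRs of these fallers and gainers, the 15 with the largest test scores each way, differ in length and in short AU-rich words. TATTTAT, searched on the transcript strand, contains the core of the AU-rich elements through which mRNAs are destabilised. It was found in the 3′ UTR of 7 of the 13 fallers that have a coding transcript and in 1 of the 15 gainers; their median 3′ UTR lengths were 2240 and 419 bases, and a longer UTR holds more matches by its length alone. Over all well-measured genes with a 3′ UTR of at least 50 bases it was found in 34.8% of those called lower, 21% of those called higher and 28.6% of all. Per 1000 bases of 3′ UTR, with overlapping matches not counted separately, the values lay closer together, at 0.281, 0.228 and 0.258. The first match in 4 of the fallers is printed to let the word be seen in its surroundings (GENCODE transcripts, GRCm38, transcript strand, the match in capitals): Stx11 at chr10:12940598-12940626 on the minus strand, Cd44 at chr2:102813556-102813584 on the minus strand, Inafm2 at chr2:118748425-118748453 on the plus strand and Mbnl1 at chr3:60627276-60627304 on the plus strand. A match is a description of the sequence and not a shown site of regulation.
Stx11: tcacttctgatTATTTATgttgtgtgagc
Cd44: aagggtgatgcTATTTATctttagtaagc
Inafm2: cctgtcatttaTATTTATggtgtgaattt
Mbnl1: ttgtagtgtaaTATTTATgcatactctac

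The most abundant genes that fell encode proteins of actin turnover, chemokines and membrane proteins. Tmsb4x, which encodes the actin monomer-binding thymosin beta 4, fell from 778594 to 122930 normalised counts, at -2.66 (SE 0.20) per the authors' deposited table. The chemokine genes Ppbp and Pf4 fell by 1.91 (SE 0.24) and 1.5 (SE 0.25) on the log2 scale per the authors' deposited table. Cd9, a tetraspanin, was at -2.87 (SE 0.17), Ctla2a at -3.59 (SE 0.27) and B2m, the light chain of MHC class I, at -3.06 (SE 0.27) there. Gng11, a G protein gamma subunit, was at -5.70 (SE 0.26) per the authors' deposited table, falling from 172999 to 3323 normalised counts. Among the most abundant genes that rose, Tln1, which couples integrins to actin, was at 0.44 (SE 0.10) and Pkm, pyruvate kinase, at 0.35 (SE 0.11) per the authors' deposited table; centring fold changes within groups of genes of like coding GC content, an alternative added after the values were seen, takes the call from Tln1 and turns the sign of Pkm.

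**Figure D2:**
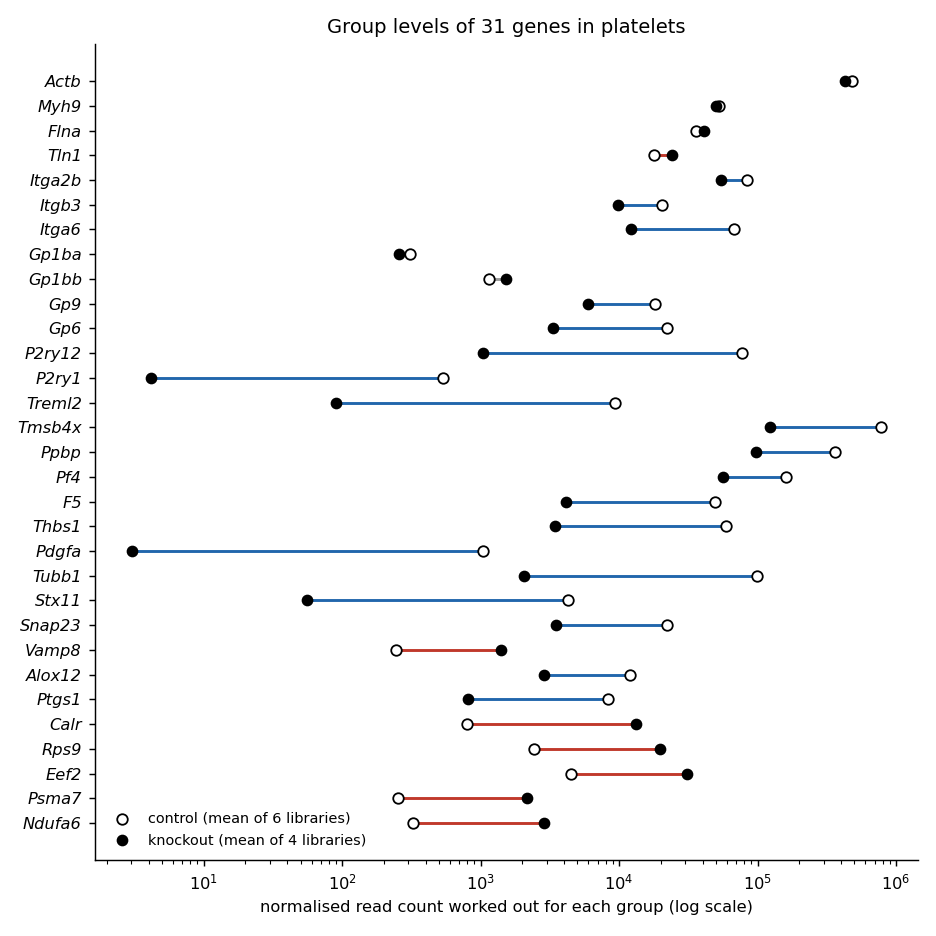
Normalised read count (horizontal log axis) worked out for control platelets (open circles, 6 libraries) and knockout platelets (filled circles, 4 libraries) for 31 genes, joined by a blue line where the authors called the gene lower, a red line where they called it higher and a grey line where they did not. Pdgfa and P2ry1 fall to single-digit counts, whereas Actb, Myh9, Flna, Gp1ba and Gp1bb were not called.

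Surface receptors fell unevenly. Of 22 tested receptor genes 16 were lower (72.7%) and 3 higher (13.6%), with a median log2 fold change of -1.74. The shares were 44.0% and 37.3% among genes at 100 or more, the nearer background, and 25.0% and 28.2% among all tested genes. The receptor list had a median count of 11689. The ADP receptors lay at one end, with P2ry12 at 76882 normalised counts in controls and 1036 in the knockout and P2ry1 at 537 and 4.16, that is, at -6.21 (SE 0.34) and -7.01 (SE 0.31) per the authors' deposited table. Cd226, an adhesion receptor, was at -4.85 (SE 0.27), Gp6, the collagen receptor, at -2.76 (SE 0.27), and Itga6, a laminin receptor subunit, at -2.49 (SE 0.14) per the authors' deposited table. The subunits of the fibrinogen receptor fell less, Itgb3 by 1.05 (SE 0.17) and Itga2b by 0.62 (SE 0.10) on the log2 scale per the authors' deposited table. Members of the von Willebrand factor receptor differed from each other: Gp9 was at -1.60 (SE 0.23), whereas Gp1ba, at -0.27 (SE 0.25; the authors' DESeq2 adjusted p = 0.40), and Gp1bb, at 0.41 (SE 0.34; adjusted p = 0.32), did not pass; after centring by 3′ UTR length Gp1ba was called lower, at -0.57. The receptors that rose were F2rl3, a thrombin receptor, at 1.65 (SE 0.17), Ptgir, the prostacyclin receptor, at 0.94 (SE 0.20), and Cd36, a thrombospondin and fatty acid receptor, at 5.17 (SE 0.92).

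Genes of granule contents mostly fell, while genes that build and release granules divided much as well-measured genes did in general. Of 23 alpha granule content genes 16 were lower and 1, Gas6, higher (median -1.91). Pdgfa (ENSMUSG00000025856, chromosome 5, 138976014 to 138997370 on the minus strand, GRCm38), a growth factor gene, went from 1031 to 3.03 normalised counts, at -8.41 (SE 0.33) per the authors' deposited table. F5, clotting factor V, was at -3.57 (SE 0.16), Thbs1, thrombospondin 1, at -4.10 (SE 0.29), and Mmrn1, the carrier of factor V, at -2.85 (SE 0.17) per the authors' deposited table. Tgfb1, at -0.01 (SE 0.17), and Selp, which encodes P-selectin, at -0.19 (SE 0.18), were not called; after centring by coding GC content Tgfb1 was called lower, at -0.39, and Gas6 lost its call.

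Of 21 tested genes of granule formation and dense granules 8 were higher (38.1%) and 9 lower (42.9%), with a median of -0.21. Those shares lay near the 37.3% and 44.0% of all genes at 100 or more. Slc18a2, the monoamine transporter that fills dense granules with serotonin, was at -5.25 (SE 0.35) and Rab27b at -3.41 (SE 0.16) per the authors' deposited table. Genes whose loss gives granule storage disorders were found on both sides: Lyst fell, at -2.75 (SE 0.22), against Hps1 at 2.98 (SE 0.27), Vps33b at 3.48 (SE 0.37), Dtnbp1 at 2.69 (SE 0.20) and Nbeal2 at 1.41 (SE 0.26) per the authors' deposited table. The exocytosis machinery divided too, with 7 of 15 higher (46.7%) and 6 lower (40%), again not far from those shares (median 0.10). Partners of 1 fusion complex moved in opposite directions, since Stx11 and Snap23, at -2.66 (SE 0.15), fell, and Vamp8, at 2.52 (SE 0.14), Stxbp2, at 0.90 (SE 0.13), and Unc13d, at 1.58 (SE 0.23), rose per the authors' deposited table.

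Signalling, cytoskeleton and transcription factor genes held members on both sides. Among genes at 100 or more 44.0% were lower and 37.3% higher. Of 36 signalling genes 17 were lower (47.2%) and 10 higher (27.8%), with a median of -0.53. Rap1b, the small GTPase that switches on integrins, was at -3.10 (SE 0.14), Lyn at -3.63 (SE 0.20) and Gnaq at -3.61 (SE 0.24), against Akt1 at 2.73 (SE 0.15) and Plcg2 at 2.43 (SE 0.16), per the authors' deposited table. Of 27 cytoskeleton genes 15 were lower (55.6%) and 5 higher (18.5%), with a median of -0.66. Tubb1 (ENSMUSG00000016255, GRCm38 chromosome 2, plus strand, 174450695 to 174457882), the beta tubulin of the microtubule coil, went from 98696 to 2046 normalised counts, at -5.59 (SE 0.23; the authors' DESeq2 adjusted p = 4.1e-129). Tuba8, an alpha tubulin, was at -3.0 (SE 0.18) and Mylk, myosin light chain kinase, at -2.68 (SE 0.18) per the authors' deposited table. The formin gene Diaph1, at 1.43 (SE 0.18), and Was, at 1.04 (SE 0.11), rose, and Actb, at -0.16 (SE 0.20), Myh9, at -0.07 (SE 0.14), and Flna, at 0.18 (SE 0.13), were not called per the authors' deposited table. After centring by coding GC content, Actb, at -0.55, and Myh9, at -0.45, were called lower.

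Of 20 megakaryocyte transcription factor genes 10 were lower (50%) and 7 higher (35%), with a median of -0.75. These shares lay near the 44.0% and 37.3% of genes at 100 or more. Fli1 was at -3.21 (SE 0.15), Gata2 at -3.09 (SE 0.23), Nfe2 at -1.64 (SE 0.20) and Runx1 at -0.99 (SE 0.19), whereas the GATA1 cofactors Ldb1 and Zfpm1 were at 3.96 (SE 0.21) and 3.09 (SE 0.17), per the authors' deposited table. Gata1 itself was not called, at -0.13 (SE 0.17; the authors' DESeq2 adjusted p = 0.55), but was lower after centring by coding GC content, at -0.52, and by 3′ UTR length, at -0.44. The list of eicosanoid genes had 4 of 9 genes lower (44.4%) and 4 higher (44.4%), or 2 higher after centring by coding GC content. The lower ones were Ptgs1, Alox12, Alox5ap and Pla2g4a. The higher ones were Tbxas1, Mgll, Gpx1 and Ptges2, the last at a mean normalised count of only 4.91. Ptgs1, the cyclooxygenase that aspirin blocks, was at -3.35 (SE 0.14) and Alox12 at -2.06 (SE 0.17), while Tbxas1, thromboxane synthase, was at 0.37 (SE 0.13), per the authors' deposited table. The sign of Tbxas1 turns when fold changes are centred within groups of genes of like 3′ UTR length, an alternative added after the values were seen.

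Genes of protein synthesis, folding and breakdown and of mitochondria were mostly higher in knockout platelets. Of the 14 cytosolic ribosomal protein genes tested 13 were higher and 0 lower, with a median log2 fold change of 2.81; the one not called was Rps2, with 20 reads in the knockout libraries and 2 in the controls. Only 15 of the 78 genes on that list have a row used here. Ribosomal proteins have many processed pseudogenes, which can share reads, so values of single genes are uncertain. Rps9 went from 2408 to 19858 normalised counts, at 3.04 (SE 0.20) per the authors' deposited table. Of 35 translation factor genes 28 were higher and 5 lower (median 2.37), with the elongation factor Eef2 at 2.79 (SE 0.14) and Eif5a at 3.63 (SE 0.18) per the authors' deposited table. The cap-binding protein gene Eif4e, at -2.09 (SE 0.33), and the helicase gene Eif4a2, at -2.23 (SE 0.20), fell per the authors' deposited table.

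Of 31 proteasome genes 27 were higher and 1, Psmd11, lower (median 2.35), with Psma7 at 3.10 (SE 0.16) per the authors' deposited table. Of 64 nuclear genes of oxidative phosphorylation 54 rose and 3 fell (median 1.97). Ndufa8 was at 4.40 (SE 0.23), and the 3 that fell were Ndufs4, at -1.39 (SE 0.29), Ndufa4, at -1.09 (SE 0.25), and Ndufa1, at -1.0 (SE 0.36), per the authors' deposited table. Of 69 genes of the mitochondrial ribosome 47 rose and 4 fell (median 1.74). Of 15 glycolysis genes 10 rose, with Pfkp, the platelet phosphofructokinase, at 4.54 (SE 0.24), whereas the glucose transporter gene Slc2a3, the only one that fell, was at -4.22 (SE 0.19), per the authors' deposited table.

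Genes of endoplasmic reticulum chaperones and the unfolded protein response changed in both directions. Of 22 genes on that list 14 were higher and 7 lower (median 1.89), and 1, the transcription factor gene Ddit3, was not called, at 0.44 (SE 0.37). The chaperone genes Hspa5, at 2.44 (SE 0.20), Hsp90b1, at 2.72 (SE 0.17), and Pdia6, at 4.09 (SE 0.30), rose per the authors' deposited table. The transcription factor gene Atf4, at -2.32 (SE 0.22), the stress sensor gene Ern1, at -1.91 (SE 0.24), and the co-chaperone gene Dnajb9, at -3.59 (SE 0.21), and Edem1, of the disposal of misfolded proteins, at -1.69 (SE 0.21), fell per the authors' deposited table. Of 17 cytosolic chaperones 12 rose and 2 fell (median 1.92).

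RNA-processing genes gave a mixed picture. Of 41 splicing factor and hnRNP genes 22 rose and 4 fell (median 0.74), or 8 fell after centring by coding GC content. Srsf2, another SR protein gene, fell from 2980 to 142 normalised counts, at -4.39 (SE 0.19) per the authors' deposited table, whereas Prpf19, Snrpd2 and Sf3b2 of the spliceosome were at 3.62 (SE 0.28), 2.93 (SE 0.23) and 3.03 (SE 0.26) there. Of 24 genes of mRNA export and 3′ end processing 13 rose (54.2%) and 5 fell (20.8%). Among all tested genes the shares were 28.2% and 25.0%, and among those at 100 or more 37.3% and 44.0%. Of 36 genes of mRNA decay 8 rose (22.2%) and 10 fell (27.8%), with a median of 0.00. On that list Smg5, of nonsense-mediated decay, was at 5.14 (SE 0.25) and Dcp2, the decapping enzyme gene, at -2.51 (SE 0.30) per the authors' deposited table.

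Genes of cell death, antigen presentation and redox defence also held strong changes in both directions. Of 20 apoptosis regulators 6 were higher (30%) and 7 lower (35%). The shares were 28.2% and 25.0% among all tested genes and 37.3% and 44.0% among those at 100 or more, so this split was not particular to the list. Bak1 and Bax, which open the outer mitochondrial membrane, were at 3.54 (SE 0.23) and 3.32 (SE 0.29), whereas the activator Bid was at -3.81 (SE 0.26), per the authors' deposited table. Bcl2l1, which sets the lifespan of platelets, was not called, at 1.52 (SE 0.82; the authors' DESeq2 adjusted p = 0.11). Of 12 genes of MHC class I presentation 6 were higher (50%) and 2 lower (16.7%). The peptide transporter gene Tap2 was at 4.81 (SE 0.30), while B2m and H2-D1 fell. Of 22 antioxidant genes 9 rose (40.9%) and 6 fell (27.3%), and of 25 autophagy genes 9 rose (36%) and 5 fell (20%). Of 32 cell cycle genes 11 rose (34.4%) and 3 fell (9.4%). Cell cycle genes had wide spreads, with Rrm2 at 3.62 (SE 0.91) and Mki67 at 2.54 (SE 0.63), and a median SE of 0.61 among those at 100 or more, against 0.23 over all such genes.

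Red cell genes had the largest median of the 33 gene lists, 4.98, together with a large SE. Of 30 tested genes 28 were higher and 1, Aqp1, lower. Their median SE was 0.94, against 0.23 over all genes at 100 or more. In the authors' deposited table Alas2, which starts heme production in red cells, was at 6.57 (SE 0.96), the band 3 gene Slc4a1 at 6.49 (SE 0.91) and Bpgm at 6.45 (SE 0.95). Some members rose with an SE below the list's median, among them Sptb, a spectrin gene, at 2.09 (SE 0.26), and Urod at 4.34 (SE 0.49) per the authors' deposited table. An SE of 0.8 or more, a limit chosen after the values were seen, held for 92 of the 4067 genes at 100 or more, of which 78 were called higher and 3 lower. Genes on the red cell list made up 17 of the 92. Some of the 92 that are not on that list had like values, among them Ube2l6, at 5.97 (SE 0.94). How many of the 92 come from red cells was not tested.

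The reads of the erythroid transcription factor gene Klf1, the 1 red cell gene low enough to be recovered, show how unevenly the knockout libraries carried it. In order of falling size factor, Klf1 had 1, 0, 4 and 12 reads in the 4 knockout libraries and 1, 0, 0, 0, 0 and 1 reads in the 6 controls. Most of its reads thus came from the knockout library with the lowest size factor; the library with 4 reads also lay above every control, and the remaining knockout libraries, with 1 and 0 reads, did not. The call on Klf1 did not pass, at 2.22 (SE 1.31; the authors' DESeq2 adjusted p = 0.15). With the 30 red cell genes left out of 12611 and p-values adjusted again, 3523 genes were higher and 3153 lower. Leaving out so few genes could change the totals only slightly, so these totals do not measure the part of red cell RNA. The part of red cell RNA in the rise of ribosomal, proteasome and mitochondrial genes was not tested; the median SE of these lists lay between 0.21 and 0.33, well under that of the red cell genes.

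**Figure D3:**
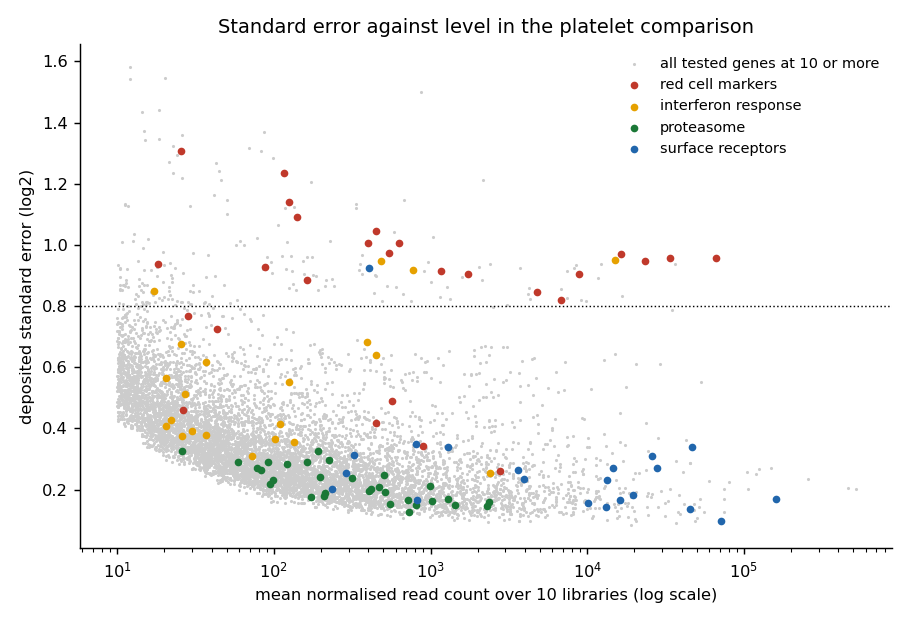
Deposited standard error of the log2 fold change (vertical axis) against mean normalised read count over 10 libraries (horizontal log axis) for tested genes at 10 or more (grey), with red cell (red), interferon (orange), proteasome (green) and surface receptor genes (blue). The dotted line is an SE of 0.8; most red cell genes lie above it at every level, together with 4 interferon genes, and all proteasome genes lie below it.

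Of 25 interferon response genes 13 rose and 2 fell (median 1.46), but their spread divided them. Rsad2 was at 5.86 (SE 0.95), Irf7 at 5.24 (SE 0.92) and Oas3 at 5.31 (SE 0.95), with SEs like those of the red cell genes. Oas1a, at 3.93 (SE 0.37), and Bst2, at 2.95 (SE 0.36), had smaller ones, per the authors' deposited table. Ifit2 fell from 3967 to 45.7 normalised counts, at -6.44 (SE 0.25) per the authors' deposited table. Ifit1, in the same gene family, was not called, at 0.24 (SE 0.68). Without the genes of an SE of 0.8 or more, 8 interferon genes were called higher and 1 lower.

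Few markers of white blood cells were called, and most had low counts. The median SE was 0.94 for neutrophil, 0.73 for T and NK cell and 0.49 for B cell markers, against 0.44 over all tested genes. The authors' DESeq2 test called 0 of 13 tested neutrophil markers, and 0 of these 13 had an unadjusted p under 0.05. B cell markers were lower for 2 of 13 and T and NK cell markers for 2 of 18, with 0 higher on either list; Cd28, at -4.19 (SE 0.42), was the larger of the T cell changes per the authors' deposited table. Of 14 monocyte and macrophage markers 2 rose and 2 fell; the abundant Lyz2, which megakaryocytes also express, was at -1.98 (SE 0.26) per the authors' deposited table. Of 5 tested eosinophil, basophil and mast cell markers 2 were lower, Siglecf, at -3.25 (SE 0.77), and Gata2, which megakaryocytes also express, and 1, Cpa3, was higher. Of endothelial and stromal markers 2 of 13 were higher and 3 lower, with Lyve1 at -5.41 (SE 0.25). Of the liver and plasma protein genes Fgb, Fgg and Ttr had no read in any library, and Alb had 4.

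Effects in most of the same gene groups were smaller in the deposited tables of megakaryocytes, the cells from which platelets come. The megakaryocyte comparisons used 3 knockout and 3 Cre-negative samples in each of 2 ploidy gates, 8N cells and cells of 16N and above, from total RNA libraries of another kind, so effects and not levels are compared. The megakaryocyte comparisons are labelled WT vs KO, which does not state the direction and could also be read as control minus knockout. Their direction was taken as knockout minus control, the reading under which Tubb1 is lower in both gates. With the other reading every megakaryocyte sign here would turn. Among 8335 genes in both tables, the median size of the log2 fold change was 1.18 in platelets and 0.21 in cells of 16N and above. Part of this can be the assay or the spread, which differ between the tables and were not separated. Of 9326 genes in each of the authors' deposited tables, the cells of 16N and above had 3.12% called lower against 0.386% higher, and the 8N cells 1.14% against 0.3%.

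The genotype effect in platelets differed from that in cells of 16N and above for 2384 genes in which it was higher (28.6%) and 2005 in which it was lower (24.1%), by a normal test of the difference between fold changes with Benjamini-Hochberg adjustment. This test takes both SEs as exact, and the megakaryocyte SE, worked out from the deposited fold change and F, is unstable where F is near 0. Of 31 proteasome genes 0 were called in cells of 16N and above, where their median log2 fold change was 0.14, and 26 had a higher effect in platelets. Of 60 oxidative phosphorylation genes 1 was called in cells of 16N and above (median 0.12), and 45 had a higher effect in platelets. With the megakaryocyte sign turned, the effect in platelets was higher for 2709 genes and lower for 2037, and higher for 26 proteasome and 44 oxidative phosphorylation genes. For surface receptors the megakaryocyte median was -0.72 and the platelet median -1.74 over the same 22 genes, with 12 lower and 3 higher effects in platelets (17 and 2 with the sign turned). For alpha granule contents the medians were -0.57 and -1.98 over 19 genes. Red cell markers had a median of -0.13 in megakaryocytes of 16N and above and 4.82 in platelets over the same 24 genes. Other groups differed less: cytoskeleton medians were -0.53 in these megakaryocytes and -0.66 in platelets over 27 genes. Neutrophil markers had the larger median in these megakaryocytes, 0.51 against 0.11 over 13 genes. In 8N cells 5 of 14 cytosolic ribosomal protein genes were called higher, with a median of 0.61.

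For some platelet genes the effects could not be told apart. Itgb3 was at -1.21 (SE 0.14) in cells of 16N and above and at -1.05 (SE 0.17) in platelets, and the difference was 0.16 (SE 0.21; adjusted p of the normal test 0.55). Itga2b, with a difference of -0.09 (SE 0.14), Alox12, with 0.61 (SE 0.34), and Ppbp, with -0.56 (SE 0.36), did not pass this test either, which does not show that their effects are equal. Some genes had a lower effect in the megakaryocytes: Flna was at -1.09 (SE 0.11) in cells of 16N and above and 0.18 (SE 0.13) in platelets, a difference of 1.27 (SE 0.17; adjusted p of the normal test 3.0e-13), and Tln1 was at -0.66 (SE 0.10) and 0.44 (SE 0.10). Genes with strong falls in platelets included some not called in either megakaryocyte table: Panx1 was at -0.37 (SE 0.28) in cells of 16N and above and -6.65 (SE 0.20) in platelets, a difference of -6.28 (SE 0.34; adjusted p of the normal test 1.0e-71). Srsf2 was at 0.15 (SE 0.29) and -4.39 (SE 0.19) per the authors' deposited tables, a difference of -4.54 (SE 0.35; adjusted p of the normal test 5.6e-36).

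**Figure D4:**
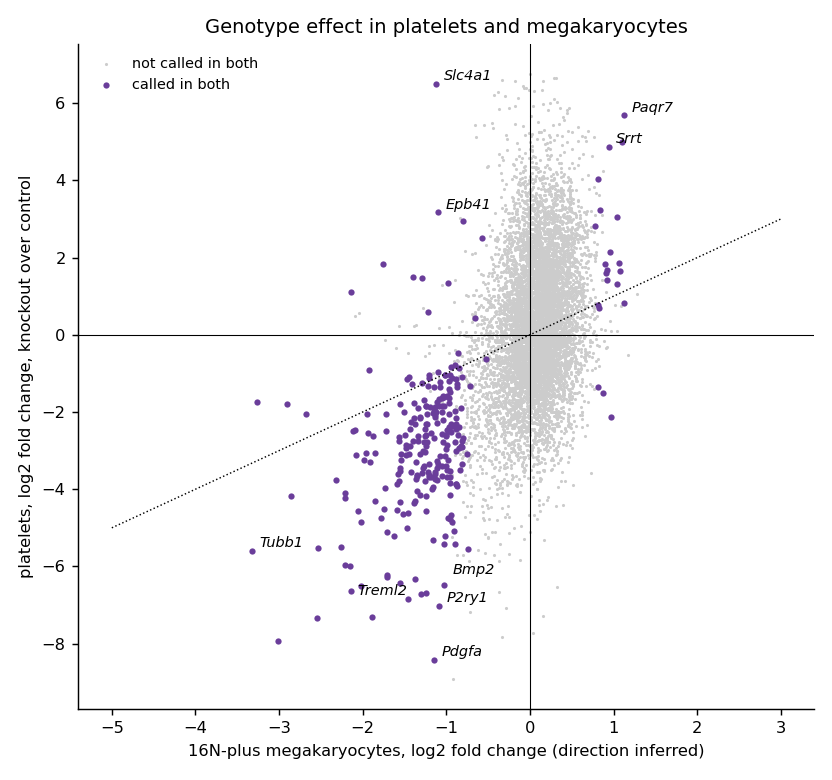
Log2 fold change in platelets (vertical axis) against that in megakaryocytes of 16N and above (horizontal axis, direction inferred) for 8335 genes; purple points were called in both tables, the dotted line marks equal effects. The platelet effects span a range several times wider; Slc4a1 and Epb41 lie at the upper left, lower in megakaryocytes and higher in platelets.

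Fold changes in platelets went with the length and base composition of the transcript, which took no part in choosing the genes. For 3989 of the 4067 genes at 100 or more (98.1%), 3′ UTR length (counted from the stop codon) and coding GC content were taken from the annotated transcript with the longest coding part. The median log2 fold change went from 0.60 in the shortest of 5 equal groups by 3′ UTR length (up to 331 bases) to 0.33, -0.11, -0.48 and -0.97 in the following groups. Of the genes with the longest 3′ UTRs (2507 bases or more) 58.3% were lower and 22.2% higher, and of those with the shortest 34.1% and 50.8%. Across 5 such groups of rising coding GC content the medians were -0.98, -0.60, -0.03, 0.49 and 0.39. Across genes, which are not independent replicates, Spearman's rho with the platelet fold change was -0.22 for 3′ UTR length, 0.22 for coding GC content, 0.25 for 3′ UTR GC content (3881 genes with at least 50 bases of 3′ UTR) and -0.07 for coding length. In the megakaryocyte tables rho with coding GC content was -0.02 (8N) and -0.06 (16N and above), and with 3′ UTR length -0.14 and -0.06. These values are over 9047 genes in each gate and not only those at 100 or more in platelets, so the gene sets differ. Amplicon and PCR yields also depend on base composition, and the part of that in the platelet values was not tested.

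**Figure D5:**
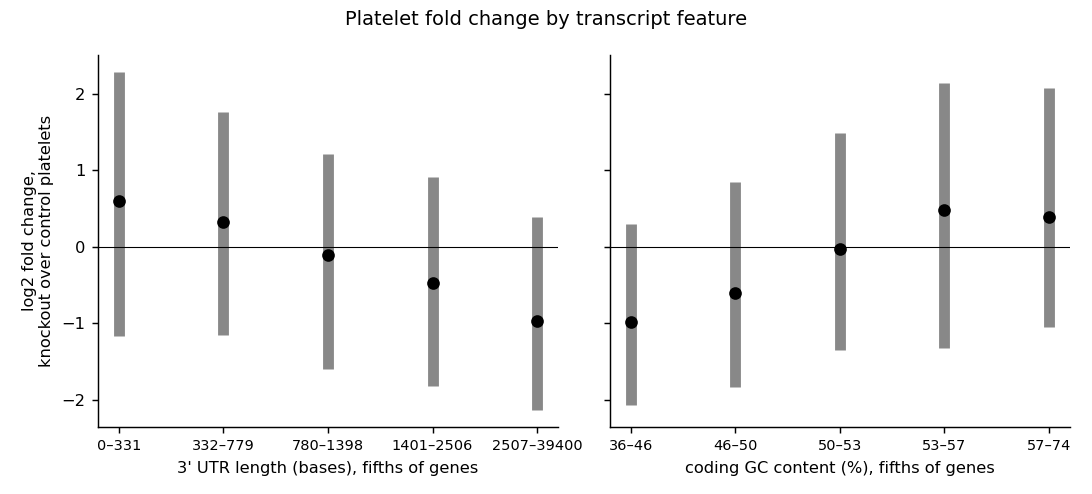
Median platelet log2 fold change (points) with the interquartile range (grey bars) in 5 equal groups of 3989 well-measured genes, ordered by 3′ UTR length (left) and coding GC content (right). The median falls from 0.60 to -0.97 with 3′ UTR length and goes from -0.98 to 0.39 with GC content, while the ranges of all groups overlap.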

How the data were processed

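Platelet RNA of 10 libraries was measured, and the authors deposited comparisons without the counts of each library. The authors used, per the submitters' processing notes, DESeq2, edgeR, featureCounts of Subread, Picard, STAR and Trimmomatic, on build mm10, with no versions listed. Per the file headers, the authors' platelet table has DESeq2's columns: a deposited signal (the mean normalised read count over libraries), a deposited log2 fold change and the SE of it, a deposited test score, and deposited p-values and adjusted p-values. The authors' megakaryocyte tables have edgeR's columns: deposited log2 fold change, log2 CPM, an F score and p-values. Total reads per library are unknown, so the standard error gives the precision. Computed here with Python 3.11.15, pandas 2.3.3 and scipy 1.17.1 were the reads per library of genes with a mean under 2, group levels, tests of a change above 2-fold and of platelet minus megakaryocyte differences (both checked on simulated data), and counts over 33 gene lists (973 entries, 819 with a row). Lists, members and tests were chosen with earlier results of these data known. Named genes were, each way, the 15 largest test scores at a mean of 100 or more, the 8 highest called counts, up to 4 called members per list and the 8 largest differences from megakaryocytes called in both tables, plus up to 3 uncalled members per list and a panel of platelet genes. Mpo, Elane, Alb, Irf7 and Oas3 were named after their values were seen. Symbols matched GENCODE M21 (GRCm38) for 17531 genes (93.5%). Alternatives changed the count filter, the threshold, the centring and the genes left out.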

Additional observations from a re-analysis of the deposited data

Results flagged for a closer look

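Genotype effects that differed between platelets and megakaryocytes of 16N and above were picked out for the 16 genes with the largest differences among those called in both tables, by the normal test of the difference; the megakaryocyte direction is inferred and the assays differ, so assay and cell type cannot be told apart. On the side where the platelet effect was lower, the platelet minus megakaryocyte difference in log2 fold change was -7.27 for Pdgfa, -5.93 for P2ry1, -5.45 for Bmp2, -5.44 for Treml2, -5.43 for Sema6d, -5.40 for Lrrn3, -5.38 for Mras and -4.95 for Sec14l5. All 8 of these genes were lower in both cell types. On the other side the difference was 7.62 for Slc4a1, 4.56 for Paqr7, 4.27 for Epb41, 3.93 for Srrt, 3.90 for Dnah10, 3.74 for Mpp1, 3.61 for Ube2o and 3.24 for Neb. Paqr7, Srrt and Dnah10 were higher in both cell types, and the other 5 were higher in platelets and lower in megakaryocytes. Slc4a1, the red cell anion exchanger, was at -1.12 (SE 0.24) in the megakaryocytes and 6.49 (SE 0.91) in platelets, and Neb, nebulin, at -2.14 (SE 0.24) and 1.11 (SE 0.33). The SE of Slc4a1 in platelets was like that of the other red cell genes. With the megakaryocyte sign turned, the order changes and some of these 16 would not be among the largest: the difference would be 5.37 for Slc4a1, 2.07 for Epb41, 2.13 for Mpp1, 0.08 for Ube2o and -1.03 for Neb, against -9.55 for Pdgfa and 6.81 for Paqr7.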

How the results depend on the processing

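No paired analysis was possible because the platelet table holds no values per library, and leaving out each library in turn was not run for the same reason. With p-values adjusted again over genes at a mean of 100 or more, 1548 genes were higher and 1820 lower, and 938 were higher by more than 2-fold; these counts fall because fewer genes are tested. At 10 or more, 1 interferon gene was lower. Centring on the median of genes at 100 or more, a shift of 0.21 on the log2 scale, gave 3959 higher and 2790 lower (58.7% of calls higher, against 53.0%). Of alternatives chosen after seeing the data, centring within 5 groups of coding GC content left 0 alpha granule genes and 2 eicosanoid genes higher and 8 splicing genes lower, with Pkm at -0.038; centring within 5 groups of 3′ UTR length put Tbxas1 at -0.064. Leaving out genes with a standard error of 0.8 or more left 6 red cell genes higher, and 8 interferon genes higher and 1 lower. Of the named genes, centring by coding GC content gave a call to 24 and took it from 8, and centring by 3′ UTR length gave it to 13 and took it from 5. With the megakaryocyte sign turned, also added later, the counts of genes whose effect differed stayed within 1.5 times in both gates. The cause of the changes under centring was not tested. The other totals of called genes stayed within 1.5 times.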
